A study of Arabidopsis thaliana with 9 samples.

Results

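The 44 genes described here belong to the ethylene response factor (ERF) and dehydration-responsive element binding (DREB) families of Arabidopsis thaliana, and they are 44 of the 37184 genes in the count tables. They were chosen by gene identifier from the ERF, RAP2, CBF, DREB and CRF groups, at a time when the values of the small RNA comparison were already known. Their fold changes in that comparison are therefore given as a description and support nothing by themselves. All 44 identifiers matched a gene in the RefSeq table used for names.

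The study sequenced small RNA from plants with the dxo1-2 allele and from Col-0 wild-type plants, and it added RNA-seq of dxo1-2 plants. There were 3 dxo1-2 small RNA libraries, 3 Col-0 small RNA libraries and 3 dxo1-2 RNA-seq libraries, which the labels call biological replicates. DXO1 belongs to a family of enzymes that act on the 5′ ends of RNA, and the labels do not say what kind of change the allele carries or how many plants a library pooled. Wild-type RNA-seq was not analysed here. The plants of all groups were 21 days old, labelled as seedlings. They grew on soil in long days of 16 h light and 8 h dark, and the seeds had first been stratified at 4 °C for 2 days. RNA was extracted from plants with Trizol, and the RNA-seq libraries were stranded and depleted of ribosomal RNA.

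ERF and DREB proteins bind DNA through 1 AP2 domain. ERF proteins are known for binding the GCC box of defence and ethylene-responsive promoters, and DREB proteins for binding the dehydration-responsive element of cold and drought genes. Some members activate transcription, others repress it through an EAR motif, and the group VII factors are degraded through their N-terminus when oxygen is present. Many of the genes are switched on quickly by wounding, touch, cold or pathogens.

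Counts on genes were 5698185, 5137378 and 5022945 in the dxo1-2 small RNA libraries, 3976221, 4140212 and 4393015 in Col-0, and from 60138933 to 71210737 in RNA-seq. DXO1 itself had 60, 46 and 57 small RNA counts in dxo1-2, against 26, 45 and 21 in Col-0, and its log2 fold change of 0.15 ± 0.28 (edgeR, adjusted p = 0.667) did not pass the test. In the dxo1-2 RNA-seq libraries DXO1 had 108, 76 and 113 counts, which without a wild-type level check nothing about the label. Leaf marker genes summed to between 10500 and 12600 counts per 1e6 counts on genes (CPM) in RNA-seq, flower markers to between 0.379 and 0.465 CPM, and root markers to between 0 and 0.0155 CPM. Root hair markers were thus near 0 in material labelled as seedlings.

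Col-0 replicate 3 stood apart from the other Col-0 small RNA libraries. It had a count on 32 of the 44 members, against 22 and 24 in Col-0 replicates 1 and 2, while the dxo1-2 libraries had a count on 40, 38 and 38. Leaf marker small RNA summed to 1650, 1980 and 2090 CPM in dxo1-2, against 453, 392 and 879 CPM in Col-0 replicates 1 to 3. Small RNA over the 2 senescence markers, SAG21 and SAG12, summed to 21.5, 25.5 and 35.9 CPM in dxo1-2, against 1.12, 0.798 and 2.16 CPM in Col-0. SAG21 overlaps an annotated microRNA gene, AT4G04125, and small RNA reads from the pair may not be told apart. Small RNA over SAG21 rose (log2 fold change 4.30 ± 0.34, edgeR, adjusted p = 9.9e-07). SAG21 averaged 106 CPM in dxo1-2 RNA-seq, where SAG12, the more specific senescence marker, had 0 counts. A list of 8 touch and wound responsive genes summed to 35.5, 49.5 and 49.1 CPM in dxo1-2, against 10.4, 9.84 and 33.4 CPM in Col-0. The part of these differences in the values of the members was not tested. Several results that rest on Col-0 replicate 3 are given with and without it, but not all.

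Small RNA over the ERF and DREB genes was higher in dxo1-2 than in Col-0 for most members that could be tested. Summed over all 44 genes, it came to 293, 325 and 317 CPM in dxo1-2, against 49.2, 51.9 and 74.7 CPM in Col-0. The ratio of the means was 5.32, between 3.39 and 7.92 over the scalings tried, and 6.04 without Col-0 replicate 3. Its SD of 1.3, like those of the group ratios below, comes from the spread between single libraries. All dxo1-2 libraries lay above all Col-0 libraries. The members together held between 0.0332% and 0.0360% of the gene counts in dxo1-2 and between 0.00440% and 0.00631% in Col-0.

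Of the 44 members, 16 had enough small RNA counts to be tested, under a filter that a gene can pass through 1 genotype alone. Members with few Col-0 counts, such as CRF3, CRF6, ERF2, ERF8, ERF104 and DREB26, passed it through dxo1-2, which favoured a higher call. In edgeR's quasi-likelihood test, with p-values adjusted over all 11534 tested genes at 0.05, 12 of the 16 were higher in dxo1-2, 0 were lower and 4 did not pass. Of all tested genes 26.8% were higher and 23.0% lower. Of the 4710 tested protein-coding genes with at least 1 CPM in RNA-seq, 52.1% were higher and 6.58% lower. No member had an unadjusted p under 0.05 in the lower direction (0 of 16), and DESeq2 and limma-voom also called 0 lower. The median log2 fold change of the 16 was 2.17, beside -0.02 for all tested genes and 1.11 for the tested expressed coding genes. Without Col-0 replicate 3, 18 of 20 tested members were higher and the median was 3.00. In that fit 3645 of all 12970 tested genes were higher, and their median was 0.05. Nothing is read from these counts about the family, because its genes were proposed with this comparison in view. The plants were sequenced in bulk, so a change in the number of cells of a type and a change in RNA per cell cannot be told apart.

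**Figure D1:**
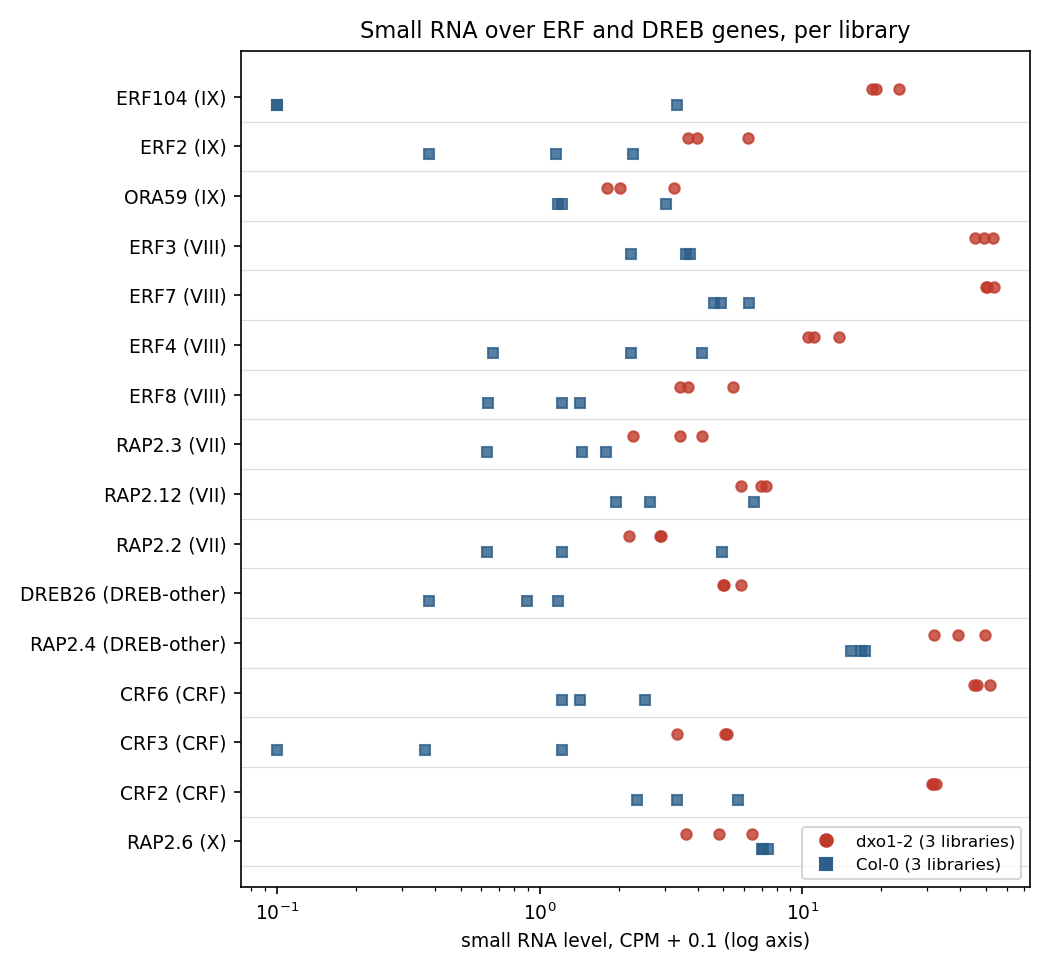
Small RNA level of the 16 tested members in each library, as CPM plus 0.1 on a log axis, with 3 dxo1-2 libraries as circles and 3 Col-0 libraries as squares. The groups lie apart for most members, overlap for ORA59, RAP2.12 and RAP2.2, and lie in the opposite order for RAP2.6.

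The cytokinin response factors (CRFs) had the highest ratio of the role groups. These are ERF genes of which several respond to cytokinin, and they take part in embryo, cotyledon and leaf development. Summed over the 6 CRF members, small RNA came to 88.1, 95.7 and 87.1 CPM in dxo1-2, against 4.78, 7.18 and 6.74 CPM in Col-0. The ratio of the means was 14.5 (SD 3.07), between 9.42 and 21.5 over the scalings tried. The 3 members that were tested were all higher, beside 52.1% of the tested expressed coding genes. CRF6 had 4, 5 and 9 small RNA counts in Col-0 and CRF3 had 4, 1 and 0, so they passed the filter through dxo1-2. For such genes a higher level in dxo1-2 was favoured in advance.

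CRF6 (AT3G61630), known for delaying leaf senescence, had 46.3, 51.9 and 45.2 CPM in dxo1-2, against 1.12, 1.33 and 2.43 CPM in Col-0. The log2 fold change of 4.85 ± 0.22 (SE) was the highest of the tested members. CRF2 (AT4G23750) had 31.4, 32.2 and 31.2 CPM in dxo1-2, against 2.25, 5.59 and 3.24 CPM in Col-0, with a log2 fold change of 3.08 ± 0.23. The groups did not overlap for either gene, and the dxo1-2 libraries lay close together. CRF3 (AT5G53290) had 3.25, 4.99 and 5.08 CPM in dxo1-2, against 1.12, 0.266 and 0 CPM in Col-0. Its log2 fold change of 3.21 ± 0.62 was 4.78 without Col-0 replicate 1 and 2.61 without Col-0 replicate 3, so its size rests on a few Col-0 counts.

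The 3 remaining CRF genes were too low to be tested. CRF4 (AT4G27950) had 12, 9 and 11 counts in dxo1-2 and 0 in every Col-0 library, at least 2.22-fold higher when Col-0 is set to 3 counts per library. CRF5 (AT2G46310) had 10, 12 and 12 counts in dxo1-2 and 0 in every Col-0 library, at least 2.39-fold higher on the same basis. CRF1 (AT4G11140) had 24, 15 and 9 counts in dxo1-2, against 1, 0 and 4 in Col-0. For each of the 6 CRF members the dxo1-2 libraries lay above the Col-0 libraries, which is given as a description. How many of all genes lay apart in this way was not counted, so nothing is read from it about the CRFs. Among CRF genes outside the 44, the genotypes lay apart for CRF8, CRF10 and CRF11. They overlapped for CRF7, CRF9 and CRF12, which had few small RNA counts. CRF4 overlaps an annotated non-coding RNA gene, AT4G07925, and reads from the pair may not be told apart.

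The group VIII genes encode repressors with an EAR motif. Of these 8 genes 4 were tested, and all 4 were higher in dxo1-2, beside 52.1% of the tested expressed coding genes. ERF8, with 4, 5 and 2 counts in Col-0, and ERF4, with 2, 8 and 15, passed the filter through dxo1-2. Summed over the 8 genes, small RNA came to 114, 125 and 120 CPM in dxo1-2, against 9.84, 12.2 and 15.6 CPM in Col-0. The ratio of the means was 9.53 (SD 2.26), between 6.11 and 14.2 over the scalings tried. All dxo1-2 libraries lay far above all Col-0 libraries.

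ERF7 (AT3G20310), a repressor of abscisic acid responses, had 50.3, 50.1 and 53.6 CPM in dxo1-2, against 4.50, 4.79 and 6.20 CPM in Col-0, with a log2 fold change of 3.31 ± 0.16. ERF3 (AT1G50640), a repressor that acts on GCC-box promoters, had 45.5, 53.2 and 49.2 CPM in dxo1-2, against 3.65, 2.13 and 3.51 CPM in Col-0, with a log2 fold change of 3.99 ± 0.19. For both genes a wide gap separated the genotypes. ERF4 (AT3G15210), a repressor induced by ethylene and jasmonate, had 10.4, 13.7 and 11.0 CPM in dxo1-2, against 0.562, 2.13 and 4.04 CPM in Col-0. For ERF4 the log2 fold change was 2.35 ± 0.40, and 3.04 without Col-0 replicate 3. The Col-0 libraries of ERF4 spread widely, with replicate 3 the highest. ERF8 (AT1G53170), another EAR repressor, had 3.56, 5.36 and 3.33 CPM in dxo1-2, against 1.12, 1.33 and 0.539 CPM in Col-0, and its log2 fold change was 2.00 ± 0.45.

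Of the other 4 EAR repressor genes, ERF9 (AT5G44210) had 7, 10 and 8 counts in dxo1-2 and 1 count in all of Col-0. Scaled for depth, the ratio was 15.7 (95% interval 2.57 to 644, counting error only). ERF11 (AT1G28370) had 6, 2 and 8 counts in dxo1-2, against 0, 5 and 4 in Col-0, and the groups overlapped. ERF10 and ERF12 had at most 9 counts in a library. ERF11 and ERF12 are direct neighbours in the annotation, and neither had enough counts to be tested.

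Group IX holds GCC-box activators of defence and stress genes. Its 10 genes summed to 30.0, 35.5 and 32.9 CPM in dxo1-2, against 1.41, 5.05 and 10.2 CPM in Col-0. The ratio of the means was 5.89 (SD 4.73), between 3.77 and 8.77 over the scalings tried, and 9.94 without Col-0 replicate 3. The large SD comes with a wide spread among the Col-0 libraries, of which replicate 3 was the highest.

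ERF104 (AT5G61600), a substrate of the kinase MPK6, held 354 of the group's 574 small RNA counts in dxo1-2 and 12 of its 62 in Col-0. Per library it had 19.0, 23.3 and 18.4 CPM in dxo1-2, against 0, 0 and 3.24 CPM in Col-0, with a log2 fold change of 4.18 ± 0.56. All 12 Col-0 counts of ERF104 came from replicate 3, and the log2 fold change was 3.57 without Col-0 replicate 2 and 3.60 without Col-0 replicate 1. Without replicate 3 no Col-0 count remained, so that no fold can be given. ERF2 (AT5G47220), a GCC-box activator, averaged 4.52 ± 1.40 CPM in dxo1-2 and 1.17 ± 0.942 CPM in Col-0 (SD, n = 3 each). The log2 fold change was 1.91 ± 0.51, and 2.65 without Col-0 replicate 3. ORA59 (AT1G06160), which joins jasmonate and ethylene signals in defensin expression, was not past the threshold. It averaged 2.26 ± 0.774 CPM in dxo1-2 and 1.71 ± 1.05 CPM in Col-0, and the groups overlapped.

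The other 7 genes of group IX were too low to be tested. ERF1A (AT4G17500) had 20, 10 and 20 counts in dxo1-2, against 0, 1 and 7 in Col-0. Its direct neighbour ERF6 (AT4G17490), an activator phosphorylated by MPK3 and MPK6, had 6, 10 and 2 counts in dxo1-2 and 1 count in all of Col-0, a ratio of 11.3 (95% interval 1.78 to 470). ERF5 (AT5G47230), a close relative in stress and chitin responses, had 4, 3 and 11 counts in dxo1-2, against 0, 1 and 3 in Col-0. ERF105 (AT5G51190), a factor of cold responses, was the only member with 0 small RNA counts in all 6 libraries. In RNA-seq it had 1258, 1259 and 1435 counts, or 20.3 ± 2.36 CPM (SD, n = 3). At 3 counts, a count of 0 allows up to between 0.465 and 0.554 CPM in a dxo1-2 library. The coding gene AT5G51180 overlaps ERF105 in the annotation, and how reads over both were counted is not given. ERF1, ERF13 and ESE1 had at most 4 small RNA counts in a library.

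Group VII factors are stabilised by low oxygen and drive fermentation genes. Their 5 genes summed to 12.4, 13.7 and 12.8 CPM in dxo1-2, against 5.34, 3.46 and 12.9 CPM in Col-0. The groups overlapped through Col-0 replicate 3 alone. The ratio of the means was 1.79 (SD 1.24), between 1.12 and 2.66 over the scalings tried, and 2.88 without that library.

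RAP2.3 (AT3G16770) was the 1 tested member of group VII that was past the threshold, with 3.19 ± 0.956 CPM in dxo1-2 and 1.19 ± 0.594 CPM in Col-0 (SD, n = 3 each). Its log2 fold change of 1.40 ± 0.47 stayed past the threshold in 9 of 16 alternatives. It was not past it without Col-0 replicate 2 (log2 fold change 1.02), without dxo1-2 replicate 2 (1.2) or without dxo1-2 replicate 3 (1.36), nor in DESeq2 (1.43), in limma-voom (1.37) or when scaled on small nuclear RNA genes (0.75). RAP2.12 (AT1G53910), held at the membrane until oxygen falls, had 5.73, 6.84 and 7.18 CPM in dxo1-2, against 2.53, 1.86 and 6.47 CPM in Col-0. With 0.85 ± 0.40 the log2 fold change was not past the threshold, but it was 1.54 and past it without Col-0 replicate 3. RAP2.2 (AT3G14230) had 2.79, 2.77 and 2.10 CPM in dxo1-2, against 1.12, 0.532 and 4.85 CPM in Col-0. For RAP2.2 the log2 fold change was 0.23 ± 0.58, and it became 1.58 when Col-0 replicate 3 was left out, -0.10 when replicate 1 was and -0.26 when replicate 2 was. RAP2.12 was also past the threshold with library totals (1.2), with all lines of the tables as library size (1.42) and in limma-voom (1.01), and RAP2.2 was -0.41 when scaled on small nuclear RNA genes. For both genes neither the size nor the call was stable. The hypoxia-induced HRE1 and HRE2 had at most 9 small RNA counts in a library.

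**Figure D2:**
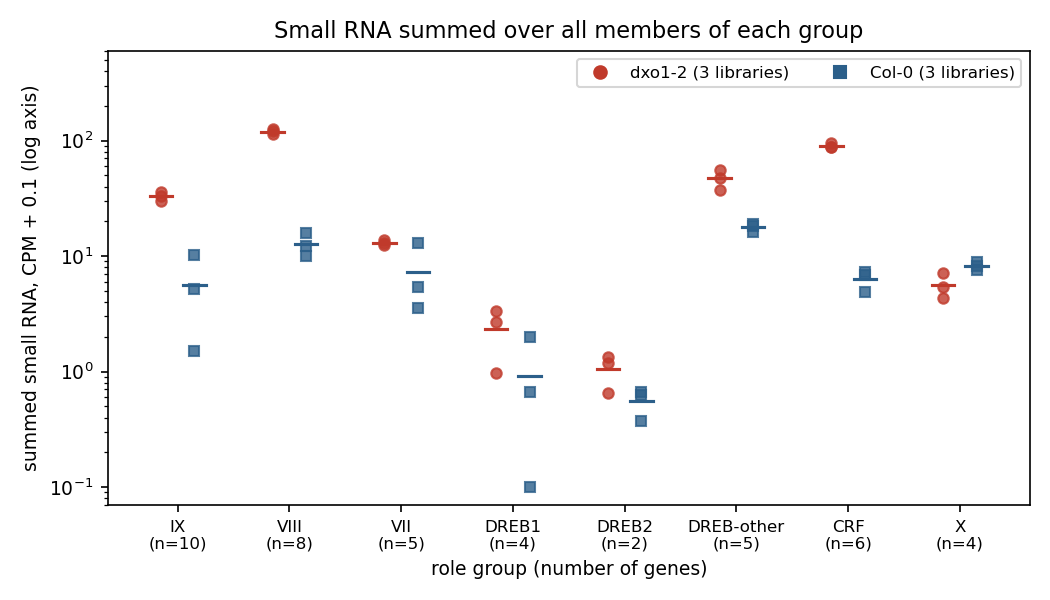
Small RNA summed over all members of each role group, tested or not, as CPM plus 0.1 on a log axis, with each library as a point and the mean as a bar. The CRF and group VIII genes show the widest gap between dxo1-2 and Col-0. Group VII overlaps through 1 Col-0 library, and the low DREB1 and DREB2 sums overlap as well. Group X lies lower in dxo1-2 with this scaling (TMM) but not with all lines as library size.

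The DREB1 and DREB2 groups had few small RNA counts in either genotype. The 4 genes of the DREB1 group, which includes the cold-induced CBF1, CBF2 and CBF3, summed to 21, 14 and 5 counts in dxo1-2, against 2, 0 and 7 in Col-0. DREB2A and DREB2B, activators of drought and heat genes, summed to 7, 3 and 7 counts in dxo1-2, against 2, 2 and 1 in Col-0. In CPM the genotypes overlapped in both groups. None of these 6 genes passed the filter, so that no fold change is given for them. CBF1, CBF2 and CBF3 are near-identical neighbours, so their reads may not be assigned with certainty.

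RAP2.4 (AT1G78080), also called WIND1 and known for wound-induced dedifferentiation, had 31.7, 39.0 and 49.4 CPM in dxo1-2, against 16.6, 15.2 and 17.3 CPM in Col-0. The log2 fold change was 1.29 ± 0.17. The groups did not overlap, and the dxo1-2 libraries spread more than the Col-0 libraries. DREB26 (AT1G21910), a DREB gene of the A-5 group, had 4.96, 5.73 and 4.91 CPM in dxo1-2, against 0.281, 0.798 and 1.08 CPM in Col-0, with a log2 fold change of 2.80 ± 0.45. ERF53, TINY and ABI4 had at most 8 small RNA counts in a library.

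Group X, which holds stress-responsive factors, did not share the higher sum. Its 4 genes came to 6.97, 4.25 and 5.26 CPM in dxo1-2, against 8.71, 7.45 and 8.09 CPM in Col-0, a ratio of 0.679 (SD 0.178). That ratio was between 0.439 and 1.01 over the scalings tried, so its direction is not fixed. RAP2.6 (AT1G43160), a stress-responsive factor, held 87 of the group's 98 counts in dxo1-2 and 78 of its 89 in Col-0. The gene had 6.35, 3.51 and 4.73 CPM in dxo1-2, against 7.31, 6.92 and 7.01 CPM in Col-0. The groups of RAP2.6 did not overlap, but its log2 fold change of -0.53 ± 0.29 was not past the threshold, and it was 0.05 with all lines of the tables as library size but -1.16, and past the threshold, when scaled on small nuclear RNA genes. RAP2.6L (AT5G13330), a related gene of shoot regeneration, had 0 counts in dxo1-2, against 5, 2 and 0 in Col-0. RRTF1 (AT4G34410), induced by redox changes, and ABR1, a repressor of abscisic acid responses, had at most 3 counts in a library.

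**Figure D3:**
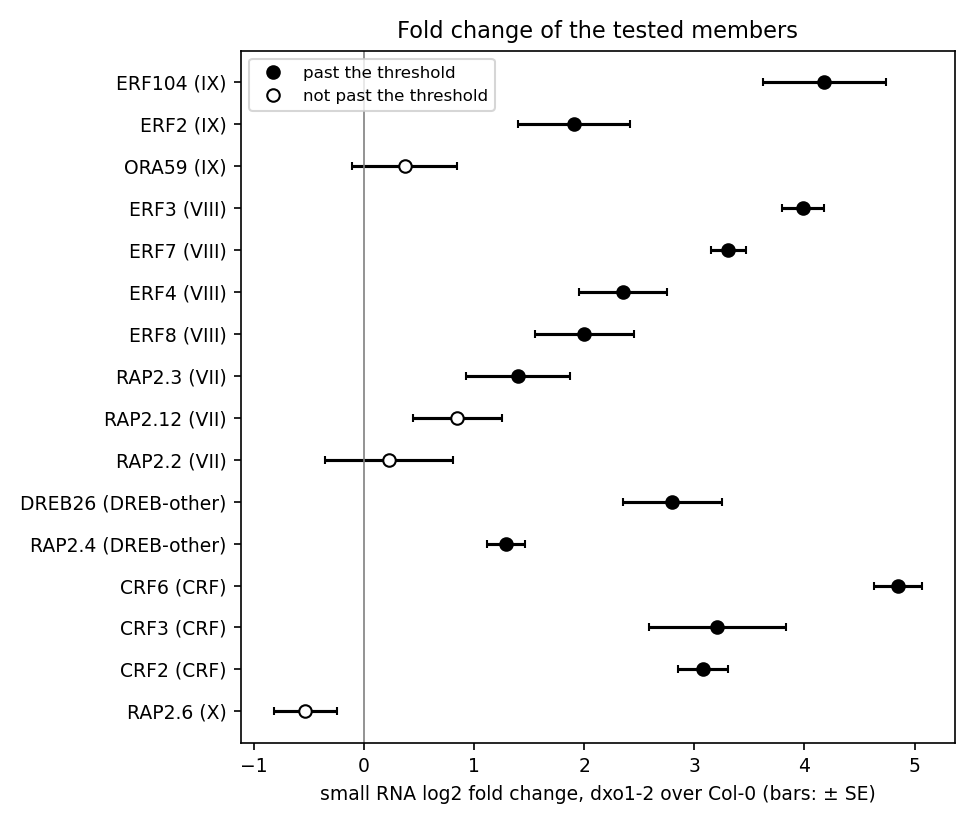
Log2 fold change of small RNA, dxo1-2 over Col-0, for the 16 tested members, with bars of ± 1 SE and filled points for those past the threshold. The fold changes run from 4.85 for CRF6 to -0.53 for RAP2.6, and ORA59, RAP2.12, RAP2.2 and RAP2.6 are not past the threshold.

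The 28 members that could not be tested had between 0 and 58 small RNA counts over the 6 libraries. Together they summed to 24.3, 21.2 and 19.8 CPM in dxo1-2, against 3.94, 4.52 and 10.2 CPM in Col-0. Their means were 21.8 ± 2.3 CPM in dxo1-2 and 6.24 ± 3.49 CPM in Col-0 (SD, n = 3 each). The groups did not overlap, and Col-0 replicate 3 was again the highest Col-0 library.

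In the dxo1-2 RNA-seq libraries, 36 of the 44 members reached a mean of 1 CPM. All 16 members tested in small RNA were among these 36. The 8 members under 1 CPM were ESE1, ERF10, ERF12, HRE2, DDF1, ABI4, TINY and ABR1, and ABI4, a factor of abscisic acid and sugar signalling, had 0 counts in all 3 libraries. CPM values here are not corrected for gene length, so levels are not ranked between genes.

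By the median, members varied more among the RNA-seq libraries than expressed coding genes did. The highest library was 1.27 times the lowest for the median member at 1 CPM or more, against 1.16 times for the median expressed coding gene. Of these members RAP2.6 varied most, between 0.520 and 2.75 CPM, a ratio of 5.28. ERF53 (AT2G20880), a drought-responsive factor, lay between 1.80 and 6.20 CPM, and ERF1 (AT3G23240), an activator of defence genes, between 1.63 and 3.62 CPM. ERF13, a stress-responsive ERF, lay between 9.31 and 19.1 CPM. These 4 members thus differed by more than 2-fold among libraries of 1 genotype.

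**Figure D4:**
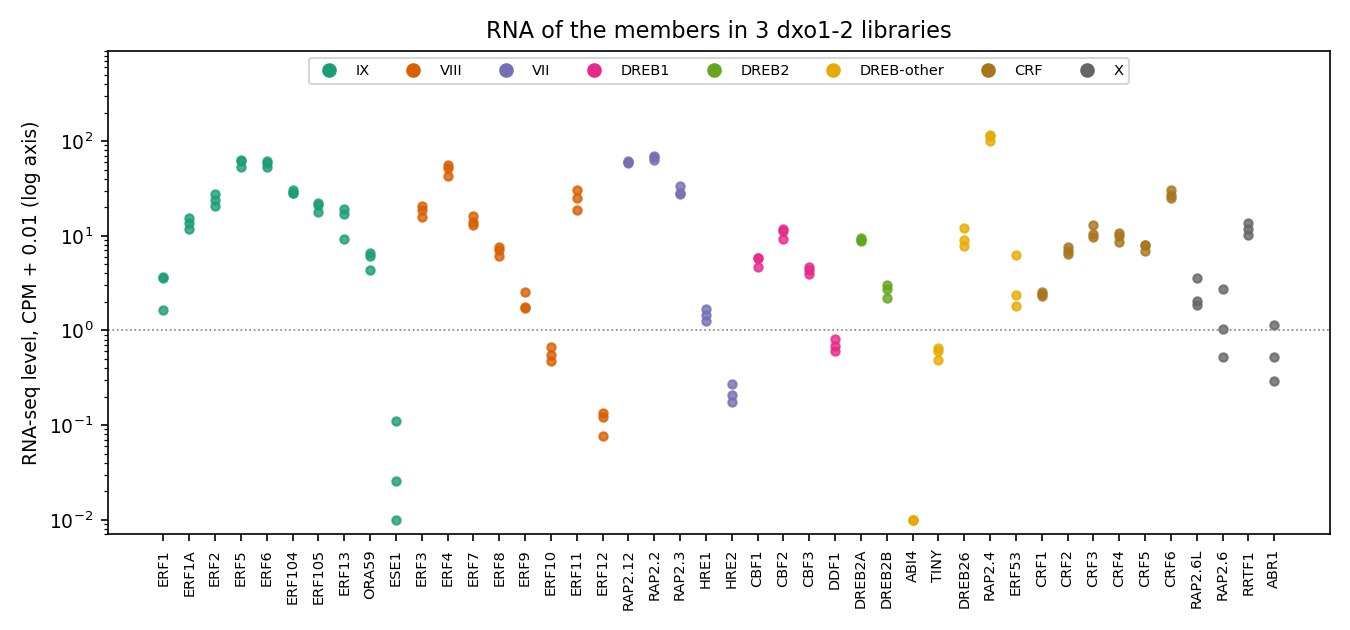
RNA-seq level of the 44 members in each of the 3 dxo1-2 libraries, as CPM plus 0.01 on a log axis, coloured by role group, with a dotted line at 1 CPM. Points of 1 gene can be compared between libraries but not between genes, and among members with a mean of at least 1 CPM, RAP2.6 and ERF53 show the widest spread, while ABI4 sits at 0 counts.

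The ratio of small RNA CPM to RNA-seq CPM of the same gene in dxo1-2 divides out the length of the gene only if both kinds of count scale with length alike, which was not tested. It set the members far apart. Over the 36 expressed members its median was 0.190 (quartiles 0.0493 and 0.553), beside 0.0804 (0.0403 and 0.194) over the 17226 coding genes with at least 1 CPM. The 2 kinds of library were prepared separately, and the ratio uses the mean of each. It was 4.52 for CRF2, which is higher than in 98.3% of those coding genes, 3.60 for ERF7, 2.69 for ERF3, 1.74 for CRF6 and 1.11 for CRF1. For RAP2.6 it was 3.40, with a range from 1.28 to 12.2 over the libraries, since its RNA level varied.

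At the low end, the ratio was 0 for ERF105, 0.0139 for RRTF1, 0.0174 for ERF5, 0.0180 for ERF6 and 0.0254 for ERF13. RAP2.6L also had a ratio of 0, but it averaged only 2.50 CPM in RNA-seq. Its count of 0 allows up to between 0.465 and 0.554 CPM in a dxo1-2 small RNA library, at 3 counts. The ratio of RAP2.6L is therefore not fixed as low. ERF5 and ERF6 had 59.6 ± 5.28 and 57.8 ± 4.04 CPM in RNA-seq (SD, n = 3 each), and they reached 1.03 ± 0.774 and 1.04 ± 0.755 CPM in dxo1-2 small RNA. ERF104, of the same group, had a ratio of 0.702. By role group, the median ratio was 0.757 for the CRFs (n = 6) and 0.655 for group VIII (n = 6). It was 0.363 for the expressed DREB genes outside the DREB1 and DREB2 groups (n = 3) and 0.175 for group IX (n = 9). The median was 0.120 for DREB2 (n = 2), 0.108 for group VII (n = 4), 0.0841 for DREB1 (n = 3) and 0.0139 for group X (n = 3). The group X median is the value of RRTF1 alone, between RAP2.6L at 0 and RAP2.6 at 3.40. Within groups the ratios overlapped widely, from 0.0362 for ERF11 to 3.60 for ERF7 in group VIII. These ratios are a description of the libraries, and no test was made of them.

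**Figure D5:**
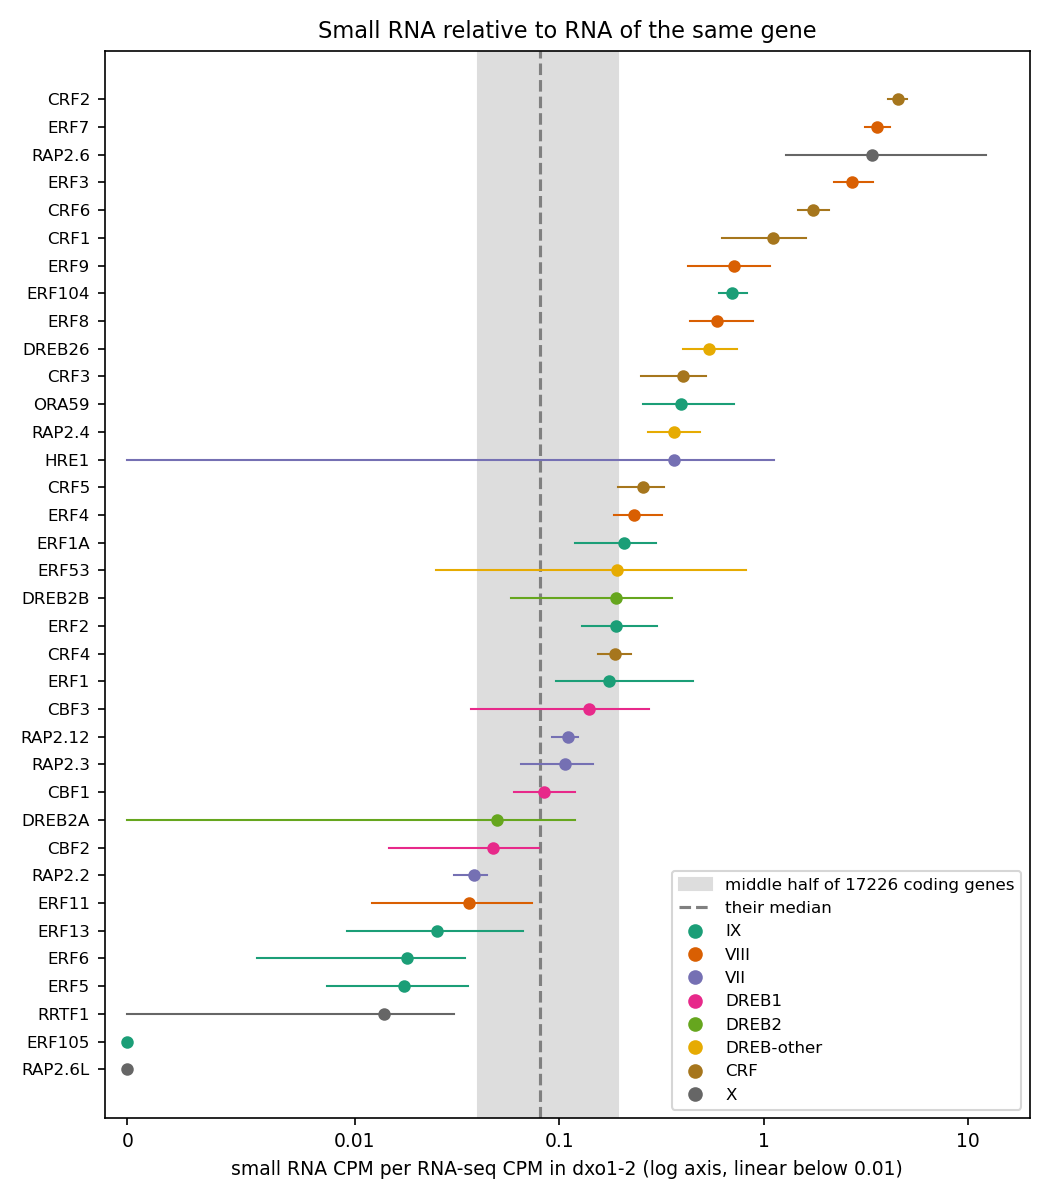
Ratio of small RNA CPM to RNA-seq CPM in dxo1-2 for the 36 members with at least 1 CPM in RNA-seq, on a log axis that is linear below 0.01. Points are ratios of means, lines run from the lowest small RNA over the highest RNA-seq library to the reverse, and the shaded band with its dashed line gives the quartiles and median of 17226 coding genes. CRF2, ERF7, RAP2.6 and ERF3 lie far above the band, and ERF5, ERF6, RRTF1 and ERF105 below it. RAP2.6L is drawn at 0, but with 0 small RNA counts and 2.50 CPM in RNA-seq its place relative to the band is not fixed.

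Genes that act before, beside or after the family were read from the same fit. In that fit 26.8% of all tested genes and 52.1% of the tested expressed coding genes were higher. Of 27 genes of ethylene synthesis and signalling, 8 were tested and 1 rose in dxo1-2, with 0 lower and a median log2 fold change of 0.19. The gene was EBF1 (AT2G25490), an F-box protein that targets the ethylene master regulator EIN3 for degradation. EBF1 had 98, 108 and 141 counts in dxo1-2, against 17, 25 and 36 in Col-0, and averaged 19.9 ± 4.76 CPM in dxo1-2 and 7.05 ± 2.49 CPM in Col-0 (SD, n = 3 each), a log2 fold change of 1.49 ± 0.27 (edgeR, adjusted p = 0.00064). Its relative EBF2 was not past the threshold (log2 fold change 1.02 ± 0.46, adjusted p = 0.0828). EIN3 and EIL1, the transcription factors that switch on ERF1, also did not pass, with log2 fold changes of 0.56 ± 0.42 and 0.88 ± 0.41. The number of genes called in this list was 5 when Col-0 replicate 3 was left out, 3 when Col-0 replicate 1 was, and 2 when either Col-0 replicate 2 or dxo1-2 replicate 1 was.

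Of 16 regulators of ERF and DREB proteins, 7 were tested, 2 rose, 0 were lower and the median log2 fold change was 0.79. HRA1 (AT3G10040), which restrains the group VII factor RAP2.12, averaged 5.73 ± 0.579 CPM in dxo1-2 and 1.28 ± 0.952 CPM in Col-0 (SD, n = 3 each). Its log2 fold change was 2.15 ± 0.46 (edgeR, adjusted p = 0.00221), and 2.74 without Col-0 replicate 3. MPK6 (AT2G43790), the kinase of ERF104 and ERF6, averaged 3.51 ± 1.04 CPM in dxo1-2 and 1.18 ± 0.616 CPM in Col-0, with a log2 fold change of 1.55 ± 0.46 (edgeR, adjusted p = 0.0153). MPK6 overlaps other annotated genes, and it did not pass when replicate 1 or 2 of Col-0 or replicate 3 of dxo1-2 was left out, with adjusted p between 0.0662 and 0.0771, nor when scaled on small nuclear RNA genes (adjusted p = 0.126). The count of this list was 5 without Col-0 replicate 3, and 1 when any of those 3 libraries was left out.

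Among 20 known target genes of these factors, 5 were tested, 2 rose, 0 were lower and the median log2 fold change was 0.64. ERD10 (AT1G20450), a dehydrin gene of the cold response, averaged 16.1 ± 2.09 CPM in dxo1-2 and 5.80 ± 1.06 CPM in Col-0 (SD, n = 3 each), a log2 fold change of 1.47 ± 0.22 (edgeR, adjusted p = 2e-04). LBD41 (AT3G02550), a hypoxia gene driven by group VII factors, averaged 8.13 ± 1.32 CPM in dxo1-2 and 1.73 ± 0.607 CPM in Col-0, a log2 fold change of 2.22 ± 0.35 (edgeR, adjusted p = 0.000288). The cold genes COR47, RD29A and KIN2 did not pass, with log2 fold changes of 0.64, -0.15 and -0.47. In this list, in the ethylene list and among the regulators, 0 genes had an unadjusted p under 0.05 in the lower direction, and DESeq2 and limma-voom called 0 lower.

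Of the 8 touch and wound responsive genes, 7 were tested, 3 rose and 0 were lower, with a median log2 fold change of 1.16. Of the tested expressed coding genes 52.1% were higher, with a median of 1.11. TCH3 (AT2G41100), a calmodulin-like gene, averaged 12.4 ± 1.54 CPM in dxo1-2 and 3.53 ± 2.59 CPM in Col-0 (SD, n = 3 each), a log2 fold change of 1.80 ± 0.37 (edgeR, adjusted p = 0.0017). SZF2 (AT2G40140), a zinc finger gene of the salt response, averaged 8.57 ± 1.60 CPM in dxo1-2 and 2.33 ± 2.16 CPM in Col-0, a log2 fold change of 1.85 ± 0.49 (edgeR, adjusted p = 0.00746). TCH4, a xyloglucan-modifying enzyme, had a log2 fold change of 1.16 ± 0.40 (edgeR, adjusted p = 0.031), which did not pass when replicate 1 or 2 of Col-0 or replicate 2 or 3 of dxo1-2 was left out, with adjusted p between 0.0961 and 0.130, nor in limma-voom (adjusted p = 0.0566) or when scaled on small nuclear RNA genes (adjusted p = 0.249). Without Col-0 replicate 3, 6 of these genes passed, and the log2 fold changes of TCH3 and SZF2 were 2.54 and 2.74. None had an unadjusted p under 0.05 in the lower direction (0 of 7), and DESeq2 and limma-voom called 0 lower.

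A further 21 genes carry an ERF, DREB, CRF or RAP2 name in the RefSeq table but are not among the 44. Of these, 9 were tested, 8 rose in dxo1-2 and 0 were lower, with a median log2 fold change of 2.59. Of all tested genes 26.8% were higher (median -0.02), and of the tested expressed coding genes 52.1% (median 1.11). Genes such as RAP2.9, with 2, 2 and 1 counts in Col-0, passed the filter through dxo1-2. Among the 9, RAP2.9, RAP2.10 and AT5G07310 averaged 0.356, 0.159 and 0.0361 CPM in dxo1-2 RNA-seq. They are thus not among the expressed coding genes. Summed over the 21 genes, small RNA came to 61.8, 64.3 and 68.0 CPM in dxo1-2, against 12.6, 13.3 and 15.1 CPM in Col-0, and the groups did not overlap. CRF11 (AT3G25890) had 14.1, 13.9 and 22.6 CPM in dxo1-2, against 1.69, 1.06 and 1.35 CPM in Col-0, a log2 fold change of 3.60 ± 0.35 (edgeR, adjusted p = 4.97e-06). RAP2.10 (AT4G36900) had 27, 30 and 28 counts in dxo1-2 and 2 counts in all of Col-0, both in replicate 2, a depth-scaled ratio of 26.7 (95% interval 7.16 to 224), and passed the test in edgeR (adjusted p = 0.00016). The tested gene that did not pass was AT5G07310 (log2 fold change 1.5 ± 0.60). All 9 had an unadjusted p under 0.05 in the higher direction and 0 in the lower, and DESeq2 and limma-voom called 0 lower. These genes were found by name, after the values of the family had been seen, and their test shares the libraries of the 44 members.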

How the data were processed

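Small RNA was compared between 3 dxo1-2 and 3 Col-0 libraries, and RNA-seq was described in 3 dxo1-2 libraries. The authors deposited raw counts per gene for each library, with 37184 genes and 5 summary lines, which stayed out of tests and library sizes except in 1 alternative. The submitters' processing notes name bedtools, Bowtie, DESeq2, HISAT2 and HTSeq and the build TAIR10. What each tool did, its version and the strand setting are not given in the sources used here. Reads of overlapping genes (8 members have one) or near copies may not be told apart. Read lengths are not in the gene counts. Names come from a RefSeq table of TAIR10.1, which matched 36899 identifiers.

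The members and gene lists were chosen with earlier results of these data known. Counts were tested with edgeR 4.0.16 (R 4.3.3, quasi-likelihood, default filter on low counts, TMM scaling, a model of genotype alone, two-sided, Benjamini-Hochberg at 0.05), and fold changes (dxo1-2 over Col-0, log2) used 0.125 as prior count. The ± of a fold change is its absolute value over the square root of F. The SD of a ratio of means combines the SDs between single libraries of both genotypes, and it is wider than the error of the means. CPM values from the deposited counts used TMM-scaled libraries for small RNA and library totals for RNA-seq. Intervals and floors (3 counts) cover counting error only. The planned levels per length of coding sequence could not be computed, and the ratio of small RNA to RNA-seq CPM was used instead.

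The rule for named genes took members with a mean of at least 10 small RNA counts or past the threshold, with values per library for the 14 highest, all members under 1 CPM in RNA-seq, and in each list the 2 smallest adjusted p and every gene past the threshold where 3 or fewer passed. ORA59, the untested members and the list genes that did not pass were chosen for naming once their values had been seen. Other settings covered scaling, filters, tools (DESeq2 1.42.0, limma 3.58.1), the replicate number as a block and leaving out each library.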

Additional observations from a re-analysis of the deposited data

How the results depend on the processing

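The 12 members higher in dxo1-2 were 11 to 14 under other scalings and tools and 19 of 43 without a filter. They were 7 of 9 when a mean of 20 counts was required, and 12 to 18, of 16 to 20 tested, with 1 library left out. Of all genes, 1878 to 6987 were higher under other scalings and tools, and 4185 of 32939 without a filter. They were 2109 of 8336 at a mean of 20 counts, and 2576 to 3645, of 11751 to 13116 tested, with 1 library left out. The count of members lower was 1 (RAP2.6) when scaled on small nuclear RNA genes, and 1 (RAP2.6L) without a filter. The members' median log2 fold change was 1.56 with that scaling, 2.56 with all lines as library size, 3.17 when a mean of 20 counts was required, and 2.16 to 3.00 with 1 library left out. The ratio of the summed CPM was 6.75 with library totals, 7.92 with all lines and 3.39 when scaled on small nuclear RNA genes. Scaling moved the median of all genes to 0.32 with library totals (85.3% of calls higher), 0.57 with all lines (93.3%), -0.66 with small nuclear RNA genes (23.1%) and 0.11 with TMM from pseudogenes (67.7%), against -0.02 (53.8%) with TMM over all genes. In single genes ORA59 turned to -0.24 and RAP2.2 to -0.41 when scaled on small nuclear RNA genes, RAP2.2 went between -0.26 and 1.58 with 1 library left out, and RAP2.6 turned to 0.05 with all lines. The cause was not tested. Of the single values of members under alternatives, 245 kept their direction and call, 6 passed newly, 7 no longer passed and 5 turned.

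The ethylene list had 3 genes higher with library totals and without a filter, 5 with all lines, and 1 to 5 with 1 library left out, and 2 lower when scaled on small nuclear RNA genes. The regulators had 1 higher with that scaling, 6 with all lines, 0 when a mean of 20 counts was required (0 genes then tested), and 1 to 5 with 1 library left out. The targets had 1 lower when scaled on small nuclear RNA genes. The touch and wound list had 6 higher with library totals and with all lines, and 2 to 6 with 1 library left out. The other ERF and DREB genes had 4 higher of 4 tested when a mean of 20 counts was required.

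Replicate numbers are shared between genotypes, but same-numbered libraries did not deviate together (r of 0.09, -0.08 and -0.02), and not every library correlated best with its own number. With the replicate block, 11 members were higher, all among the 12 (RAP2.3 was not past the threshold, adjusted p = 0.0636), 0 lower, and 2913 and 2571 of all genes higher and lower. In RNA-seq 27 members reached 5 CPM. The default filter left 16 members to test.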
